A study of Mus musculus with 8 samples.

Results

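Macrophage identity is set by a small group of transcription factors, and 9 of them were followed here in bone marrow-derived macrophages (BMDMs) of control (LysM) and myeloid-specific KLF2 knockout (K2KO) mice. The factors were Spi1, Cebpa, Cebpb, Irf8, Runx1, Maf, Bach1, Mitf and Tfec, chosen by name as factors of the macrophage lineage. All 9 were found among the 23761 genes of the deposited expression table, and all 9 were among the 10920 genes with a mean of at least 1 FPKM (fragments scaled by transcript length and by the mapped fragments of a library) that entered the test. Only Tfec passed the test for a difference between the genotypes, with 1.79 times the LysM mean in the libraries labelled K2KO. For the other 8 factors the K2KO mean was between 0.764 and 1.15 times the LysM mean, and the ranges of LysM and K2KO libraries overlapped.

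The study asked what part the transcription factor KLF2 in myeloid cells has in metabolic inflammation and obesity. For it, RNA of BMDMs was sequenced from 4 LysM and 4 K2KO mice of 3 months of age. LysM mice were LysM Cre/Cre and K2KO mice were LysM Cre/Cre with KLF2 flox/flox, so both groups carried Cre recombinase in both copies of the lysozyme M gene (Lyz2), and floxed Klf2 was the only allele that set them apart in the labels. Deletion through this Cre takes place in cells of the myeloid lineage as they mature, and cells that escape it can remain in the culture. BMDMs are marrow cells grown into macrophages in medium conditioned by L929 fibroblasts, a source of the growth factor CSF1. The sample descriptions carry the mark "veh" with no agent named. The libraries are called LysM0 to LysM3 and K2KO0 to K2KO3 after their columns in the table, which give the genotype but not which mouse of the group. Summed FPKM ran from 448235 in K2KO0 to 551608 in LysM3, and the relative depth read from the steps of low FPKM was between about 0.938 and 1.47 times that of LysM0. These depths are approximate, since only 41 to 132 of the 2218 to 2491 low genes compared per library shared the most frequent ratio. Without read counts the error of counting is unknown.

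Klf2 was read first, as a check of the labels. Its FPKM were 44.1, 52.9, 64.7 and 72.8 in LysM0 to LysM3, and 45.5, 41.6, 59.2 and 59.3 in K2KO0 to K2KO3. The genotypes overlapped and the mean was 58.7 ± 12.7 FPKM (SD, n = 4) in LysM against 51.4 ± 9.22 FPKM (SD, n = 4) in K2KO (two-sided exact permutation test, p = 0.429). The value covers the whole transcript, and which part of Klf2 the flox sites flank is not given in the sources used here, so this level does not check the labels. K2KO therefore stands for the libraries labelled K2KO.

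The cells carried the markers of macrophages. Cd68 had a mean of 1807 FPKM over the 8 libraries. The summed FPKM of 10 macrophage markers was 4920 to 5066 in LysM and 4652 to 4817 in K2KO, without overlap. The summed FPKM of all genes also ran lower in K2KO, at 448235 to 501965 against 497253 to 551608 in LysM. No difference between the genotypes is therefore read from the marker sums. Lyz2, the gene that holds the Cre insertion, was at 18.6 ± 2.88 FPKM (SD, n = 4) in LysM, below all other macrophage markers but Mertk, which had 14.2 FPKM. Factors that specify other lineages were at or near 0, as 11 of 12 such genes had a mean under 1 FPKM. The highest of them, Tal1, a regulator of blood stem cells and the red cell lineage, had 2.20 FPKM. Twist1 and Myod1, regulators of mesenchyme and muscle, were listed at 0 in all 4 LysM libraries, but each was above 0 in at least 1 K2KO library. The summed FPKM of the 12 genes was 2.74 to 3.04 in LysM and 3.08 to 4.22 in K2KO, without overlap, at levels near the floor.

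PU.1, the product of Spi1, is an ETS-family factor that opens enhancers in myeloid progenitors and binds most macrophage enhancers together with C/EBPα (Cebpa), C/EBPβ (Cebpb) and RUNX1. IRF8 partners PU.1 on composite sites and directs progenitors to the monocyte fate. MAF restrains self-renewal and drives genes of resting macrophages, BACH1 represses genes of heme and glutathione metabolism, and MITF and TFEC are related basic helix-loop-helix factors of the lysosome, the osteoclast and the macrophage.

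The 9 factors spanned a wide range of levels. FPKM are scaled by transcript length, but this scaling does not account for GC content. The loci of Cebpb and Irf8 also overlap other expressed genes, as described further on, so the order of levels is approximate. Over the 8 libraries Cebpb had the highest mean at 385 FPKM, followed by Spi1 at 227 FPKM, Irf8 at 103 FPKM and Cebpa at 94.98 FPKM. Maf followed at 44.5 FPKM, Runx1 at 20.5 FPKM, Bach1 at 12.6 FPKM, Mitf at 10.5 FPKM and Tfec at 3.20 FPKM. Cebpb stood at the 98.3th percentile of the tested genes by mean FPKM, and Tfec at the 20.7th. Neighbours in this order whose ranges over the 8 libraries overlapped were Cebpb and Spi1, Irf8 and Cebpa, and Bach1 and Mitf. Cebpb was nevertheless above Spi1 within all 8 libraries, whereas Irf8 was above Cebpa in 6 of 8 and Bach1 above Mitf in 7 of 8. The other 5 pairs of neighbours did not overlap.

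**Figure D1:**
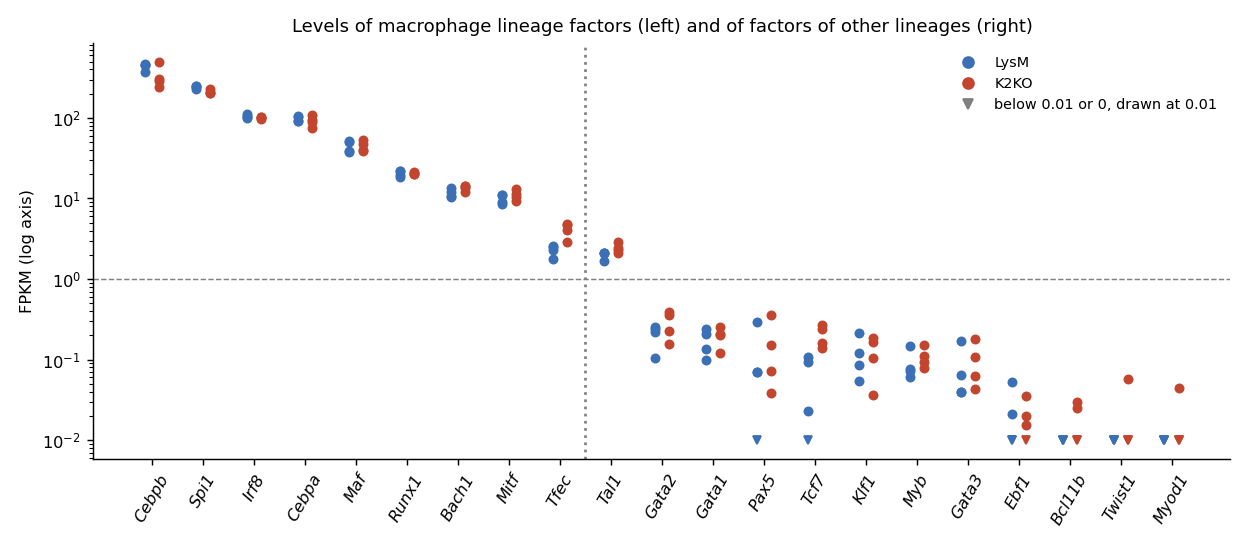
FPKM (log axis) of the 9 macrophage lineage factors and of 12 factors of other lineages, one point per library, LysM in blue and K2KO in red. The dashed line marks the 1 FPKM that a gene's mean had to reach to be tested, and Tal1 is the one factor of another lineage above it.

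Between genotypes, 1 of 9 factors was called, with thresholds of 0.05 on the limma adjusted p and 0.26 on the size of the log2 fold change, against 18.4% of all 10920 tested genes (9.84% called higher and 8.61% called lower in the libraries labelled K2KO). These were 1074 genes higher and 940 lower, and with upper-quartile scaling 1335 higher and 748 lower. A log2 fold change here is the K2KO mean minus the LysM mean of log2(FPKM + 0.1). By their means 5 factors were higher and 4 lower, and the median absolute log2 fold change was 0.15 for the factors and 0.17 for all tested genes. Groups without overlap were found for 1 of 9 factors and for 23.1% of all tested genes. These shares are descriptions of the list, and nothing particular to the lineage factors is read from them.

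**Figure D2:**
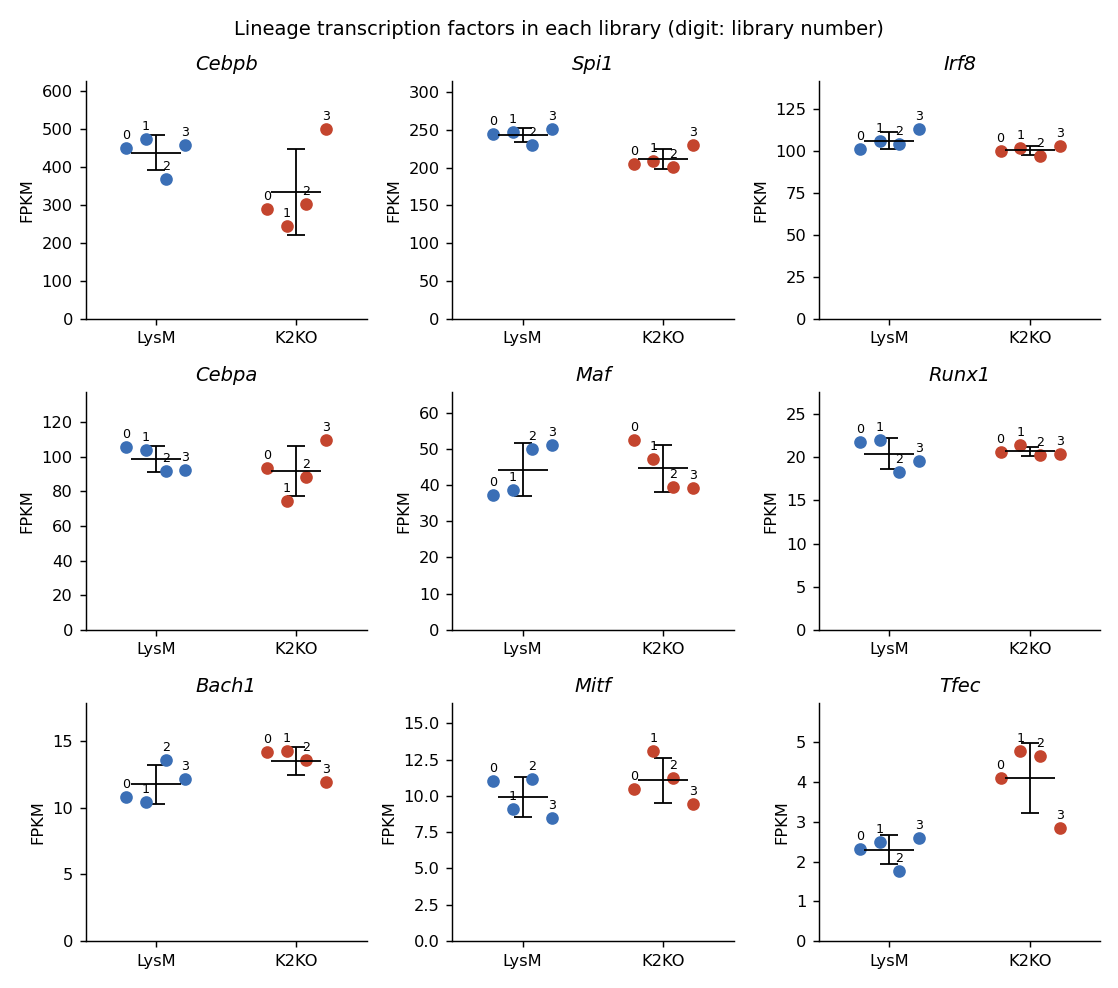
FPKM of each lineage factor in each library, with its own axis from 0 for each gene. Digits give the library number, and the bars show the mean and SD of 4 libraries. Tfec is the one factor without overlap (1.77 to 2.59 FPKM in LysM, 2.85 to 4.79 FPKM in K2KO), and in Cebpb the library K2KO3 lies above all others at 500.3 FPKM.

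Tfec (chr6:16833373-16898441 in mm10, minus strand), a relative of Mitf found mainly in macrophages, rose in the libraries labelled K2KO. It had 2.32, 2.503, 1.77 and 2.59 FPKM in LysM0 to LysM3. In K2KO0 to K2KO3 it had 4.10, 4.79, 4.67 and 2.85 FPKM. The lowest K2KO library, K2KO3, was above the highest LysM library, LysM3, by a small margin, and the other 3 K2KO libraries stood well clear. The mean went from 2.30 ± 0.368 to 4.10 ± 0.889 FPKM (SD, n = 4 each). The log2 fold change was 0.80 with a standard error of 0.18 and a 95% interval from 0.40 to 1.197 (limma, adjusted p = 0.0203). The two-sided exact permutation test of the mean FPKM gave p = 0.0286, the smallest value that 4 against 4 libraries allow. With GC content and transcript length regressed out of every library, as described further on, the log2 fold change was 0.61 with an adjusted p of 0.0516 in limma, which ends the call. Leaving out LysM3, K2KO0, K2KO1 or K2KO2 also raised the limma adjusted p above 0.05, to between 0.0595 and 0.0637, while the log2 fold change stayed between 0.71 and 0.86.

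Mitf (chr6:97807052-98021349, plus strand), the master regulator of melanocytes that also acts in osteoclasts and macrophages, lies on the same chromosome and did not pass. Its FPKM were 11.0, 9.08, 11.2 and 8.45 in LysM0 to LysM3 and 10.5, 13.1, 11.3 and 9.44 in K2KO0 to K2KO3. The groups overlapped, with a log2 fold change of 0.15 (95% interval from -0.12 to 0.43, limma adjusted p = 0.373). Of the related factors, Tfe3 went from 73.7 to 63.5 FPKM without overlap of the groups. Its limma adjusted p was 0.0274, but its log2 fold change of -0.22 was under the fold threshold. The log2 fold change was -0.21 after the GC and length correction (limma adjusted p = 0.0432) and -0.17 with upper-quartile scaling (limma adjusted p = 0.0344). It was -0.24 without K2KO3 (limma adjusted p = 0.0137) and -0.09 with quantile normalization (limma adjusted p = 0.220). Tfeb, the regulator of lysosome genes, had a log2 fold change of -0.18 (limma adjusted p = 0.1596), and of 0.05 after the GC and length correction. None of 6 tested target genes of MITF and TFEC was called by limma, against 18.4% of all tested genes, while 3 had an unadjusted p under 0.05. Clcn7, a chloride transporter of the lysosome, had an adjusted p of 0.049996 (limma) and a log2 fold change of 0.26, just short of the fold threshold, and its groups did not overlap. It was called with quantile normalization (log2 fold change 0.35), with upper-quartile scaling (0.30) and without K2KO3 (0.28), but not after the GC and length correction (0.22, limma adjusted p = 0.0697). Leaving out 1 library gave between 0 and 2 of these target genes called, with 2 without LysM0, where 2332 of all 10920 tested genes were called. Atp6v0d2, a subunit of the proton pump, had a log2 fold change of 0.50 with overlapping groups (limma adjusted p = 0.199).

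Cebpb (chr2:167688915-167690418, plus strand), the C/EBP factor induced by inflammatory signals, was called or not depending on 1 library, K2KO3. Its FPKM were 449, 472, 368 and 458 in LysM0 to LysM3. They were 289, 245, 301 and 500.3 in K2KO0 to K2KO3. K2KO0, K2KO1 and K2KO2 lay below every LysM library, while K2KO3 lay above every LysM library. With all 8 libraries the log2 fold change was -0.44 (95% interval from -0.88 to 0.01, limma adjusted p = 0.138), which did not pass. Without K2KO3 it was -0.65 (95% interval from -0.90 to -0.39, limma adjusted p = 0.00699), and Cebpb was then called lower. After the GC and length correction, with all 8 libraries, it was -0.17 (limma adjusted p = 0.401).

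The 250 bases before the start of Tfec and Cebpb, the factors with the highest and the lowest log2 fold change, are shown to set their base composition side by side. They are taken from RefSeq on GRCm38.p6 and written 5′ to 3′ on the strand of the gene, with capitals for CACCC (the core of the CACCC box bound by KLF factors, on either strand, so GGGTG as well) and for GGAAGT (a core of ETS sites, such as those of PU.1, on either strand). The window of Tfec, chr6:16898442-16898691 on the minus strand, has a GC content of 39.2%, and that of Cebpb, chr2:167688665-167688914 on the plus strand, one of 81.6%.
Tfec: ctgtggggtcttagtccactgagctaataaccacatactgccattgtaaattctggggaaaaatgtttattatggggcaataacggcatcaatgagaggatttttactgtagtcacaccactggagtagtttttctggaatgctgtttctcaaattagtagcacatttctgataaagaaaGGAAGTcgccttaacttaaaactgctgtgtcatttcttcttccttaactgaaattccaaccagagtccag
Cebpb: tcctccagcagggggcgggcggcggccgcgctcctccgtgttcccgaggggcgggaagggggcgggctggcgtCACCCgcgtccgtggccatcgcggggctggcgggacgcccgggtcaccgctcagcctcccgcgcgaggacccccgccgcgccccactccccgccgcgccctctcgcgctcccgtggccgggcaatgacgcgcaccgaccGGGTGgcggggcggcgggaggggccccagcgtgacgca

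The window of Cebpb holds 2 matches to CACCC and none to GGAAGT, and that of Tfec 1 match to GGAAGT and none to CACCC. RefSeq windows were matched for 7 of 9 factors, with 11 windows in all, since Mitf, Irf8 and Runx1 have several starts. CACCC was found in 4 of these 11 windows and in 52.0% of 32851 windows of the same length over all genes, and GGAAGT in 1 of 11 and in 19.7%. A match of this kind is a description of the letters and not of binding.

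Spi1 (chr2:91096096-91115756, plus strand) had 244, 247, 229 and 252 FPKM in LysM0 to LysM3 and 205, 208, 201 and 230.0 FPKM in K2KO0 to K2KO3. The genotypes met only between LysM2 and K2KO3, and 3 of 4 K2KO libraries lay below all LysM libraries. The mean was 243 ± 9.71 FPKM in LysM and 211 ± 12.9 FPKM in K2KO (SD, n = 4 each), a log2 fold change of -0.20 (95% interval from -0.35 to -0.06). The limma adjusted p was 0.0530, with an unadjusted p of 0.0115, so Spi1 did not pass over all genes. Without K2KO3 the adjusted p was 0.0154 (limma) but the log2 fold change of -0.25 stayed under the fold threshold. Both the GC and length correction and the quantile normalization removed most of the difference, with log2 fold changes of -0.05 and 0.00.

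Cebpa (chr7:35118044-35121928, plus strand), which starts the myeloid programme in progenitors, had 106, 104, 91.7 and 92.3 FPKM in LysM0 to LysM3. It had 93.4, 74.6, 88.4 and 109.8 FPKM in K2KO0 to K2KO3, and K2KO3 and K2KO1 gave the highest and the lowest of all 8 values. The genotypes overlapped, at a log2 fold change of -0.12 with a 95% interval from -0.37 to 0.14 (limma adjusted p = 0.474). Cebpd, the C/EBP factor of acute responses, was the one of 4 tested relatives that was called, against 18.4% of all tested genes called. Cebpd fell from 3.95 to 2.56 FPKM without overlap (log2 fold change -0.59, limma adjusted p = 0.0250). After the GC and length correction its log2 fold change was -0.69 (limma adjusted p = 0.0255).

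Irf8 (chr8:120736358-120756694 in GENCODE M21, plus strand) was the factor with the least spread, with a within-genotype SD of 0.06 on the log2 scale. Its FPKM were 101, 106, 104 and 113 in LysM0 to LysM3 and 99.8, 101, 96.7 and 103 in K2KO0 to K2KO3. K2KO0 and K2KO2 lay below all LysM libraries and the other two within their range, and the log2 fold change of -0.08 had a 95% interval from -0.21 to 0.05 (limma adjusted p = 0.335). Irf5, a factor of inflammatory macrophages and the most abundant relative in the IRF family, went from 213 to 182 FPKM without overlap, at a limma adjusted p of 0.0252 and a log2 fold change of -0.23, under the fold threshold. The value was -0.06 with quantile normalization (limma adjusted p = 0.428) and -0.12 after the GC and length correction (limma adjusted p = 0.113). None of 6 tested relatives of IRF8 was called by limma, against 18.4% of all tested genes, and 2 had an unadjusted p under 0.05. Of 6 tested target genes of IRF8, Cx3cr1, the fractalkine receptor, was called, and fell from 4.71 to 2.26 FPKM (log2 fold change -1.09, limma adjusted p = 0.0239), at a background of 8.61% called lower. Cst3, a protease inhibitor and the most abundant of these targets, had a log2 fold change of -0.33 with overlapping groups (limma adjusted p = 0.0708), and was called without K2KO3 (limma adjusted p = 0.0443). Leaving out 1 library gave between 0 and 2 of the IRF8 targets called, against 337 to 2837 of all 10920 tested genes.

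Runx1 (chr16:92601466-92826149, minus strand), which establishes blood cell fate and is needed to activate Spi1, had 21.8, 22.03, 18.3 and 19.5 FPKM in LysM0 to LysM3. It had 20.6, 21.4, 20.3 and 20.4 FPKM in K2KO0 to K2KO3, all within the range of the LysM libraries. The log2 fold change of 0.02 had a 95% interval from -0.13 to 0.18 (limma adjusted p = 0.837). Its partner subunit Cbfb had a log2 fold change of 0.16 (limma adjusted p = 0.117).

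Maf (chr8:115682942-115707794, minus strand) had 37.4, 38.7, 50.1 and 51.1 FPKM in LysM0 to LysM3 and 52.6, 47.3, 39.5 and 39.2 FPKM in K2KO0 to K2KO3. Each genotype held a lower and a higher pair of libraries, so the groups overlapped throughout. The log2 fold change was 0.01 with a 95% interval from -0.29 to 0.32 (limma adjusted p = 0.953). None of 3 tested relatives in the MAF family, all small MAF proteins, was called by limma, against 18.4% of all tested genes, and 1 had an unadjusted p under 0.05. Mafk was called after the GC and length correction (log2 fold change 0.26, limma adjusted p = 0.0458), as were 9.72% of all tested genes.

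Among the listed target genes of the MAF family 4 of 5 were called lower in the libraries labelled K2KO, at a background of 8.61% of all tested genes called lower. These were the 3 chains of complement C1q, which are parts of 1 protein complex, and Il10, the anti-inflammatory cytokine. The list was chosen with earlier results of these data known, so the count is a description and not a test of MAF activity. C1qa had 2215, 2554, 2869 and 3102 FPKM in LysM0 to LysM3 and 1346, 1052, 1292 and 1664 FPKM in K2KO0 to K2KO3. Every K2KO library was below every LysM library, and the log2 fold change was -1.01 with a standard error of 0.15 (limma adjusted p = 0.00772). C1qb fell by 0.53 and C1qc by 0.58 on the log2 scale, from LysM means of 4753 and 3515 FPKM, also without overlap. Il10 fell from 27.0 to 16.6 FPKM without overlap (log2 fold change -0.65, limma adjusted p = 0.0333). Cd5l, a scavenger protein of tissue macrophages, had a log2 fold change of -0.19 with overlapping groups (limma adjusted p = 0.528). After the GC and length correction these 4 genes were still called, with log2 fold changes of -0.82 for C1qa, -0.39 for C1qb, -0.45 for C1qc and -0.75 for Il10. With quantile normalization C1qb lost its call (log2 fold change -0.26, limma adjusted p = 0.0570), and C1qc, still called, and C1qa had log2 fold changes of -0.26 and -0.68. With a mean of at least 0.1 FPKM as the filter 4 of the 5 genes were called, at 1850 of 14521 tested genes called. With no filter at all 1 was, at 1090 of 21236. Leaving out 1 library gave between 1 gene, without LysM3, and 4 genes, without LysM0. Of all 10920 tested genes 337 were called without LysM3 and 2332 without LysM0. Without K2KO3 it was 3 genes, at 26.0% of all tested genes, as Il10 lost its call (limma adjusted p = 0.0571).

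**Figure D3:**
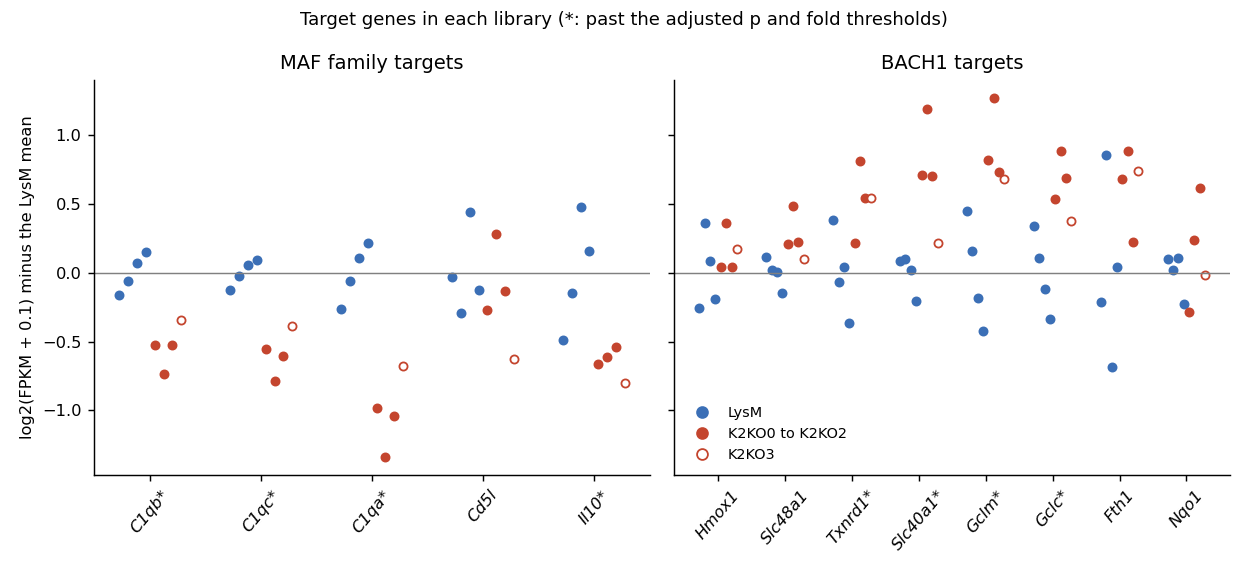
log2(FPKM + 0.1) of the tested target genes of the MAF family (left) and of BACH1 (right) in each library, minus the LysM mean of the gene. LysM libraries are blue, K2KO libraries red, K2KO3 open, and an asterisk marks a called gene. The K2KO points of C1qa, C1qb, C1qc and Il10 lie below all LysM points of the gene, and those of Gclm, Gclc and Slc40a1 above.

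Bach1 (chr16:87698945-87733346, plus strand), the heme-sensing repressor, had 10.8, 10.4, 13.6 and 12.2 FPKM in LysM0 to LysM3 and 14.2, 14.3, 13.6 and 11.96 FPKM in K2KO0 to K2KO3. K2KO0 and K2KO1 were above all LysM libraries, K2KO2 exceeded LysM2, the highest of them, by less than the digits given show, and K2KO3 lay within the LysM range. The log2 fold change was 0.20 with a 95% interval from -0.01 to 0.42 (limma adjusted p = 0.149), and 0.06 after the GC and length correction. Nfe2l2, which encodes NRF2, the activator that shares sites with BACH1, rose from 74.4 to 91.4 FPKM with overlapping groups (log2 fold change 0.30, limma adjusted p = 0.0380). After the same correction its adjusted p was 0.221 in limma, with a log2 fold change of 0.14.

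Of 8 tested target genes of BACH1, 4 were called higher in the libraries labelled K2KO and none lower, at a background of 9.84% called higher. This list too was chosen with earlier results of these data known, and the count is a description. Gclm, a subunit of the enzyme that limits glutathione synthesis, had 23.4, 19.1, 15.03 and 12.7 FPKM in LysM0 to LysM3. It had 30.2, 41.5, 28.5 and 27.6 FPKM in K2KO0 to K2KO3. All K2KO libraries were above all LysM libraries, at a log2 fold change of 0.88 with a standard error of 0.19 (limma adjusted p = 0.0196). Slc40a1, the iron exporter ferroportin, rose from 24.6 to 41.2 FPKM (log2 fold change 0.71, limma adjusted p = 0.0262), and Gclc, the other subunit of the glutathione enzyme, from 4.54 to 6.98 FPKM (log2 fold change 0.62, limma adjusted p = 0.0262). Txnrd1, thioredoxin reductase, rose from 38.2 to 54.8 FPKM with overlapping groups (log2 fold change 0.53, limma adjusted p = 0.0494). Hmox1, heme oxygenase and the best known target of BACH1, had 674 ± 136 FPKM in LysM and 742 ± 79.9 FPKM in K2KO (SD, n = 4 each), with overlapping groups and a limma adjusted p of 0.442. The GC and length correction kept Gclm, Slc40a1 and Gclc called and lost Txnrd1, whose log2 fold change was then 0.47 (limma adjusted p = 0.0885). Txnrd1 was also not called without K2KO3 (limma adjusted p = 0.0746). With the filter at 0.1 FPKM 3 targets were called, at 1850 of 14521 tested genes called, and with no filter 1 was, at 1090 of 21236. Leaving out 1 library gave between 0 and 4 genes called, with 0 in limma without LysM2, LysM3, K2KO0, K2KO1 or K2KO2, where 4 to 6 genes had an unadjusted p under 0.05. Between 337 and 1030 of all 10920 tested genes were called in these fits. The 4 genes were reached without LysM0 and without K2KO3, where 2332 and 2837 of all tested genes were called. Fth1, the ferritin heavy chain, which has many copies in the genome, was listed at only 2.06 FPKM in LysM and 3.05 FPKM in K2KO, and its level is uncertain.

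Of the 16 tested target genes of PU.1 and the C/EBP factors, 4 were called, 2 in each direction, against 18.4% of all tested genes called. With quantile normalization it was 4 higher and 1 lower, against 835 higher and 699 lower over all tested genes. Leaving out 1 library gave between 0, without LysM3, and 7, without K2KO3. Of all 10920 tested genes 337 were called without LysM3 and 2837 without K2KO3. Csf2rb, the shared receptor chain for GM-CSF, IL-3 and IL-5, rose from 41.4 to 68.8 FPKM (log2 fold change 0.74, limma adjusted p = 0.0120), and Msr1, a scavenger receptor, had a log2 fold change of 0.32 (limma adjusted p = 0.0208). Aif1, an actin-binding protein of macrophages, fell from 253 to 156 FPKM with overlapping groups (log2 fold change -0.68, limma adjusted p = 0.0496), and Lyz2 had a log2 fold change of -0.49 (limma adjusted p = 0.0260). After the GC and length correction Aif1 and Msr1 lost their call, with log2 fold changes of -0.54 for Aif1 (limma adjusted p = 0.0800) and 0.14 for Msr1 (limma adjusted p = 0.159), and Aif1 was also not called with quantile normalization (limma adjusted p = 0.0928). The most abundant of these targets, Ctss and Tyrobp, a lysosomal protease and a signalling adaptor, had log2 fold changes of -0.09 and -0.16 and did not pass, and with quantile normalization Tyrobp was at 0.17. Csf1r, the receptor for CSF1 and a classical PU.1 target, had 524 FPKM in LysM and 526 FPKM in K2KO. Of 4 tested targets of C/EBPβ only Il10, also a target of the MAF family, was called, at a background of 8.61% called lower. Leaving out 1 library gave 0 or 1, against 337 to 2837 of all 10920 tested genes. Il1b, the inflammatory cytokine, had a log2 fold change of -0.43 with overlapping groups (limma adjusted p = 0.315).

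Counted once each, 13 of 44 tested target genes (29.5%, against 18.4% of all tested genes) were called, 6 higher and 7 lower, with a median log2 fold change of 0.00. As the lists were chosen with earlier results known, these shares are descriptions. With quantile normalization the split was 10 higher and 5 lower, against 835 higher and 699 lower over all tested genes. Among 45 tested relatives and partners of the factors, 9 (20%, close to the 18.4% of all tested genes) were called, 7 higher and 2 lower, with a median log2 fold change of 0.03. Beside Cebpd and Nfe2l2 these included the ETS factors Elf1, with a log2 fold change of 0.35, and Gabpa, with 0.49. Elf1 lost its call after the GC and length correction (log2 fold change 0.10, limma adjusted p = 0.217) and Gabpa, still called, was at 0.31. They also included 5 of 17 other regulators of macrophages. Id2, an inhibitor of helix-loop-helix factors, rose from 224 to 368 FPKM (log2 fold change 0.70, limma adjusted p = 0.0171). Nr1h3, the oxysterol receptor LXRα, fell from 29.4 to 20.04 FPKM (log2 fold change -0.56, limma adjusted p = 0.0109). Klf4 and Mef2a had log2 fold changes of 0.41 and 0.43. After the correction Klf4 was at 0.57 and still called, while Mef2a, at 0.23, was not (limma adjusted p = 0.146), and without K2KO3 it was Klf4 that was not called (limma adjusted p = 0.0586). Junb and Id3, the most abundant of these regulators, did not pass (limma adjusted p of 0.179 and 0.388), with log2 fold changes of -0.18 and -0.28, and Junb was at 0.06 with quantile normalization. The GC and length correction left 6 relatives and 11 targets called, at 9.72% of all tested genes. The filter at 0.1 FPKM gave 9 relatives and 11 targets, at 1850 of 14521 tested genes called. No filter gave 5 relatives and 4 targets, at 1090 of 21236. Leaving out 1 library gave between 1 and 10 relatives and between 1 and 17 targets, in both cases lowest without LysM3. Over all 10920 tested genes 337 were called without LysM3. Without K2KO3, where 10 relatives and 17 targets were called, it was 2837.

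The change of the factors followed the GC content of their transcripts. GC content ran from 40.4% for Tfec to 67.2% for Cebpb, and over the 9 factors the log2 fold change fell as GC content rose, with a Spearman's rho of -0.93 and a Pearson's r of -0.91 across genes, which share the 8 libraries and are not independent. Over 10899 tested genes Spearman's rho was -0.39. The libraries themselves differed in this way: values rose with GC content in LysM0, LysM1 and LysM3, by 0.10 to 0.12 log2 units per 10 points of GC content relative to the mean of the 8 libraries, and fell with it in K2KO0, K2KO1 and K2KO2, with slopes of -0.10 to -0.14 in the same unit. LysM2 and K2KO3 stood apart from their genotypes, with slopes of -0.01 and 0.03. GC content and genotype thus moved together in 6 of 8 libraries, and the part of GC content in the changes was not tested.

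**Figure D4:**
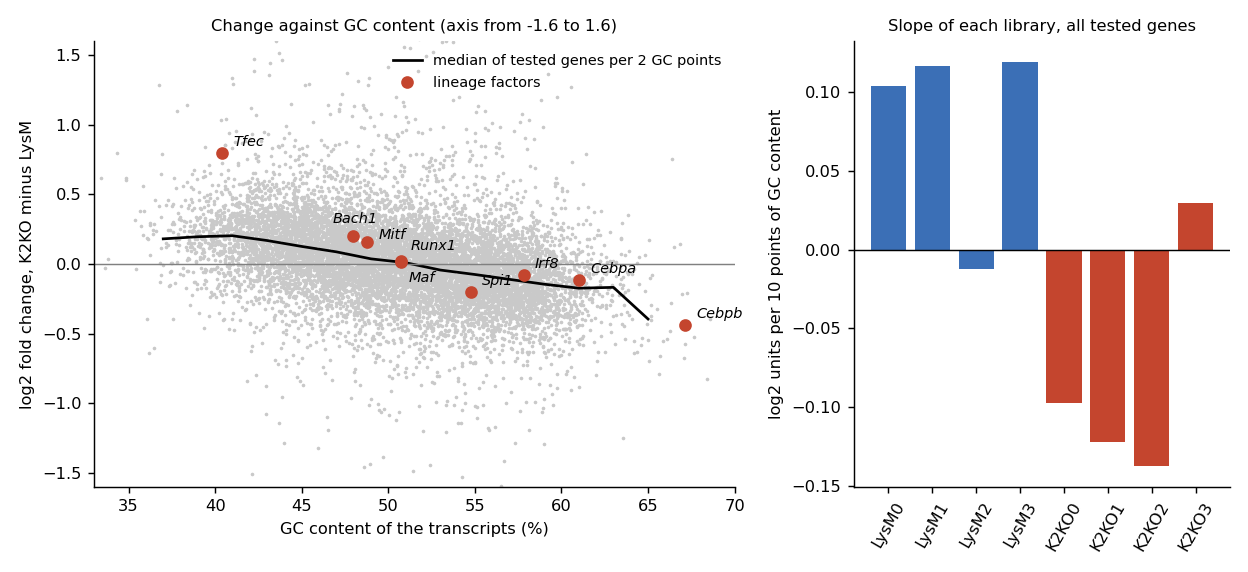
Left, log2 fold change (K2KO minus LysM) against the GC content of the transcripts in percent, for all tested genes in grey, their median per 2 points of GC content as a line, and the 9 lineage factors in red. Right, the slope of log2(FPKM + 0.1) on GC content in each library, in log2 units per 10 points, relative to the mean of the 8 libraries. Tfec lies above the line of all genes, and the slopes of LysM2 and K2KO3 are near 0.

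When each library was corrected for GC content and length by local regression, none of the 9 factors was called by limma, against 9.72% of 10899 tested genes. The number of factors with an unadjusted p under 0.05 went from 2, Spi1 and Tfec, to 1. The median absolute log2 fold change of the 9 factors went from 0.15 to 0.06. Tfec kept a 95% interval from 0.22 to 1.00, and no other factor had an absolute value above 0.17. Maf and Runx1 then had log2 fold changes of -0.11 and -0.07, and Irf8 one of 0.00, each with the sign opposite to that before the correction.

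**Figure D5:**
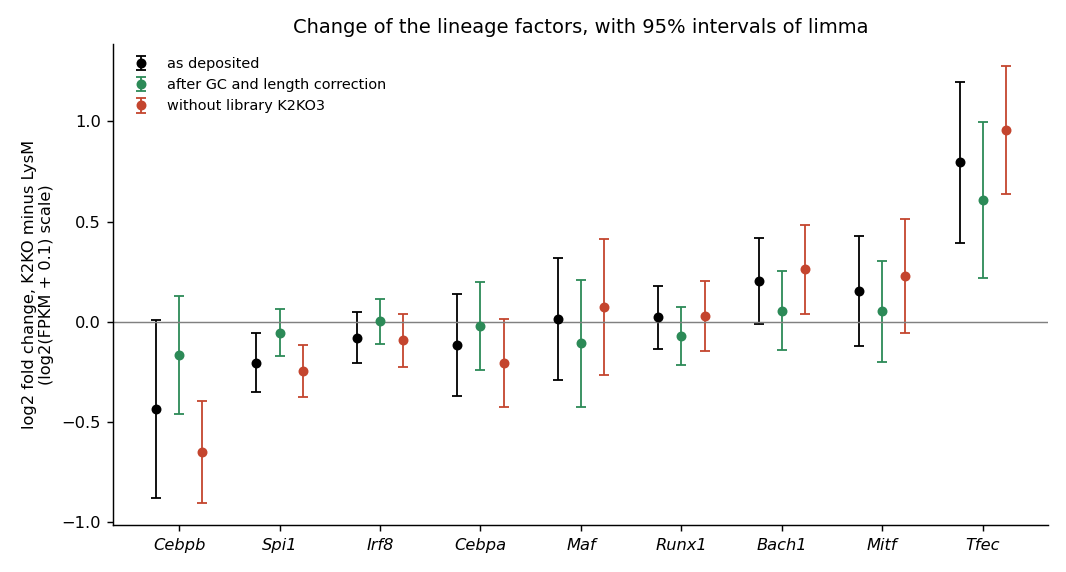
log2 fold change of each lineage factor (K2KO minus LysM, log2(FPKM + 0.1) scale) with the 95% interval of limma, as deposited (black), after the GC and length correction (green) and without K2KO3 (red). Tfec has an interval above 0 in all 3 fits, and that of Cebpb lies below 0 without K2KO3.

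K2KO3 was the K2KO library nearest the LysM mean for 7 of 9 factors and for 46.2% of all tested genes, against 15.1% to 19.8% for the other 3. For Tfec it had 1.24 times the LysM mean, while the K2KO mean without it was 1.97 times. For Cebpb it had 1.15 times the LysM mean, while the K2KO mean without it was 0.637 times. Without K2KO3, 2 of 9 factors were called, Tfec higher (log2 fold change 0.96, limma adjusted p = 0.00488) and Cebpb lower, at a background of 26.0% of all tested genes.

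Several factors share their locus with other genes, and whether strand was used in counting is not stated. Cebpb overlaps an exon of a noncoding transcript of Tmem189 on the opposite strand in GENCODE M21, and Tmem189 had 213 FPKM with a log2 fold change of 0.22 (limma adjusted p = 0.104). The locus listed for Irf8 in the table spans 4435 kb against 20.3 kb in GENCODE M21 and so takes in neighbouring genes, and the overlapping gene Gm20388 on the same strand had 21.4 FPKM and a log2 fold change of -0.24 (limma adjusted p = 0.502). The genes that overlap Cebpa, Maf, Runx1 and Mitf were each below 1 FPKM, and Spi1, Bach1 and Tfec overlap none. Maf and Irf8 lie on chromosome 8 like the floxed Klf2, at distances of 43.4 and 48.4 Mb from it.

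Markers of other cells were examined beside these results. Of 9 neutrophil markers 8 were tested and Camp, a granule peptide, was called (log2 fold change -1.14, limma adjusted p = 0.0178), at a background of 8.61% called lower. When 1 library was left out, 0 or 1 was called, against 337 to 2837 of all 10920 tested genes. S100a9 was the most abundant at 129 FPKM, Ly6g was at 0.262 FPKM in LysM and 0.16 in K2KO, and the summed FPKM of the list were 210.1 to 341 in LysM and 209 to 334 in K2KO. Among T cell markers Cd4, which some macrophages also carry, rose from 1.92 to 5.15 FPKM (log2 fold change 1.38, limma adjusted p = 0.000434), while Cd3d, Cd3e, Cd3g and Cd8a each had a mean under 0.2 FPKM. The platelet chemokine Ppbp had a log2 fold change of 1.07 (limma adjusted p = 0.0291) at a mean of 3.17 FPKM and was not called after the GC and length correction (0.98, limma adjusted p = 0.0700), and Klf1, Hba-a1 and Hbb-bs were below 1 FPKM. No marker of fibroblasts, mast cells or progenitors reached a mean of 1 FPKM, and of the markers of dendritic cells, B cells and osteoclasts that were tested none was called. Of 10 macrophage markers 3 were called, Mertk higher and Aif1 and Lyz2 lower, against 18.4% of all tested genes. Mertk went from a log2 fold change of 0.36 to 0.20 with the GC and length correction and lost its call (limma adjusted p = 0.127). Leaving out 1 library gave between 0 and 5 macrophage markers called, the highest count without K2KO3, at 26.0% of all tested genes. In bulk RNA fewer cells of a type and less RNA per cell cannot be told apart, and the part of such cells in the changes of the factors was not tested.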

How the data were processed

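Per the paper, alignment to mm10 was by TopHat2 and quantification by Cufflinks, while the submitters' processing notes list STAR, Cufflinks and Cuffdiff, with no versions given in the sources used here. The deposited table holds FPKM (fragments scaled by transcript length and by the mapped fragments of the library) with 1 column per library. The labels name a Roche kit for RNA isolation and the paper an RNeasy kit.

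Gene names, GC content and transcript length were taken from GENCODE M21 on GRCm38, which matched 23645 of 23761 genes. Distances from Klf2 and overlaps with other genes also rest on GENCODE M21. The positions printed for the factors are those of the deposited table, except that of Irf8. For Spi1 and Cebpa the start in GENCODE M21 differs from the one printed. The filter kept genes that averaged 1 FPKM or more, which entered limma 3.58.1 (R 4.3.3) on log2(FPKM + 0.1), with an intensity trend and Benjamini-Hochberg adjustment over all 10920 tested genes, at an adjusted p of 0.05 and an absolute log2 fold change of 0.26. Values of single genes were compared with exact permutation tests over 70 assignments (Python 3.11.15). The fits were tested on simulated data. The 4 libraries of a genotype come from 4 mice per the paper.

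The factors, gene lists and tests were chosen with earlier results of these data known. Named were all 9 factors, Klf2 and at most 4 called genes per list by absolute log2 fold change. Up to 2 of the most abundant genes were named for some lists only. The 2 genes most like each of the 3 most abundant factors were named as well. Cd5l, Csf1r, Fth1, overlapping genes and markers near 0 were named in addition, after their values were seen. Alternatives were other pseudocounts, filters, scalings and thresholds, limma without a trend, a GC and length correction by local regression (span 0.3), a replicate block and leaving out each library. Counts of called genes within the lists under these alternatives were added after seeing the data. Ftl1, Gpnmb and Nfe2l3 were not analysed here, and some genes of the lists are not reported here.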

Additional observations from a re-analysis of the deposited data

How the results depend on the processing

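Of 10920 tested genes 2014 were called. The count was 1090 without a filter on low values, 110 at an absolute log2 fold change over 1, 1059 after the GC and length correction and 917 with that correction and a replicate block, and between 337, without LysM3, and 2837, without K2KO3, when 1 library was left out. The number of lineage factors called was 1, and it was 0 at an absolute log2 fold change over 1, after the GC and length correction and with this correction and a replicate block, and between 0 and 2 when 1 library was left out. With the replicate block alone 2057 genes and 1 factor, Tfec (limma adjusted p = 0.0375), were called, and the block changed no other call of a factor. The deviations of same-numbered libraries from their genotype means correlated at -0.07, 0.02, 0.07 and -0.06. Libraries with different numbers correlated at -0.14 to 0.18. No pairing by number was seen in these values, which cannot decide whether mice were paired. Tfec was called under 13 of 20 alternatives, with log2 fold changes from 0.61 to 0.96 and a limma adjusted p from 0.00488 to 0.0890. The difference of its mean FPKM was 1.58 to 2.22 when 1 library was left out, a design of 3 against 4 libraries in which the exact permutation test cannot go below p = 0.0571.

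Signs turned for 5 factors, all without a call. With quantile normalization the log2 fold change was 0.0036 for Spi1, 0.025 for Cebpa and 0.062 for Irf8. After the GC and length correction, with or without the replicate block, it was -0.11 for Maf, 0.0016 for Irf8 and -0.073 for Runx1. Leaving out 1 library gave Maf log2 fold changes between -0.069 and 0.087, negative without LysM0 (-0.063), LysM1 (-0.047), K2KO0 (-0.069) or K2KO1 (-0.018), and differences of mean FPKM of -2.001, -1.58, -2.35 and -0.578, the highest being 2.57. For Runx1 the log2 fold change ran from -0.028, without LysM2, to 0.060, and the difference of mean FPKM from -0.433, without LysM2, and -0.0337, without LysM3, to 0.805. The cause of these changes was not tested. FPKM give no read counts, so the counting error of a low gene such as Tfec is unknown.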

Other observations

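Other genes followed the 3 most abundant factors from library to library within the genotypes, by the Pearson correlation of log2(FPKM + 0.1) centred on each genotype's mean over 8 libraries and 5455 genes. Spi1 was most like Ctdnep1 (r = 0.994), a nuclear envelope phosphatase, and Pdgfa (r = 0.979), a growth factor. Cebpb was most like Romo1 (r = 0.987) and Fkbp8 (r = 0.986), both proteins of mitochondria. Irf8 was most like 2310011J03Rik (r = 0.964) and Dhx34 (r = 0.938), an RNA helicase. The best partner of a gene had a median r of 0.982 over all genes compared, so values of this size are usual with 8 libraries.

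Among the factors themselves, Cebpa and Cebpb (r = 0.871) and Spi1 and Cebpb (r = 0.862) rose and fell together within the genotypes, as did Maf and Bach1 (r = 0.822). Cebpb ran opposite to Bach1 (r = -0.761) and to Mitf (r = -0.743), and Bach1 also to Cebpa (r = -0.745) and to Spi1 (r = -0.724). Over all pairs of factors r ran from -0.761 to 0.871. K2KO3 was the highest K2KO library for Cebpb, Cebpa and Spi1 and the lowest for Bach1, Mitf and Maf. The correlations were not computed without it. These correlations share libraries whose values differ in their slope on GC content, and are given as descriptions over 8 libraries. The spread of the factors within a genotype had a median SD of 0.18 on the log2 scale, against 0.13 for all tested genes.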
